A study of Homo sapiens with 3 samples.

Results

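The 9 genes described here encode proteins of epithelial cell junctions and of the epithelial cytoskeleton: CDH1, EPCAM, OCLN, TJP1, CLDN1, DSP, KRT8, KRT18 and KRT19. They were picked by name and matched by Ensembl identifier. Of the 9 genes, 7 had an entry among the 23379 genes listed in the deposited tables, and 4 averaged 1 FPKM or more over the 3 libraries (FPKM is a count of fragments scaled to gene length and to the library total). CDH1, KRT8 and KRT19 were listed below that level. EPCAM and DSP had no entry and were counted as 0. Every gene listed had a value above 0 in at least 1 library, so that a gene with no counted read anywhere would have no entry.

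RNA was sequenced from DU145 cells, an established human line from a metastasis of a prostate carcinoma, in 3 libraries. P-Enter is the negative control, WT is made from cells that overexpress wild-type BRAF, and L597R from cells transfected with plasmids carrying the BRAF mutant of that name; BRAF is the kinase that links RAS to MEK and ERK. All 3 groups share the DU145 background, and the labels name no time point and do not say whether the cells were clones. Each group is 1 library, so no difference below has a replicate check or a p-value. Counted reads, worked out from the values, were between 13294004 and 16603676 a library. BRAF was at 1.65, 4.41 and 9.59 FPKM; sets of 3 values here and below are in the order P-Enter, WT, L597R. Intervals are exact 95% intervals and cover counting error only; they compare libraries, not conditions. Lower levels per cell and fewer cells with a transcript cannot be told apart in RNA from whole cultures.

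Epithelial cells hold together through 3 kinds of junction. In adherens junctions the cadherin CDH1 binds its like on the next cell and is tied to actin through catenins. Tight junctions seal the space between cells with claudins such as CLDN1 and with occludin (OCLN), which are held by scaffold proteins such as TJP1 (ZO-1). Desmosomes carry the plakin DSP (desmoplakin), which ties desmosomal cadherins to keratin filaments. Keratin filaments are built from equal parts of a type I chain, such as KRT18 or KRT19, and a type II chain, such as KRT8, and KRT8 with KRT18 is the usual combination of simple epithelia and their carcinomas. EPCAM is an adhesion protein of the epithelial cell surface.

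RefSeq promoter windows (GRCh38.p14, 300 bases, of which 250 lie before the start) were on hand for 5 of the 9 genes: OCLN, TJP1, CLDN1, DSP and KRT8. They are shown because the E-box CAGGTG is the sequence that SNAI and ZEB repressors of epithelial genes are known to bind, and because these genes stood at very different levels. The 250 bases before the start are printed 5′ to 3′ on the gene's own strand, with every E-box CANNTG, which includes CAGGTG, in capitals.
DSP, chr6:7541421-7541670, plus strand: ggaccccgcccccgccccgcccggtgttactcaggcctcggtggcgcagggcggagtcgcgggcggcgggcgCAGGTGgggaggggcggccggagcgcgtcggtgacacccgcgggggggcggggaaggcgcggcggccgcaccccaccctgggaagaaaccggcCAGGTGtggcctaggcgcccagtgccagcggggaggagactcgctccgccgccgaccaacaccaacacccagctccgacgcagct
OCLN, chr5:69492297-69492546, plus strand: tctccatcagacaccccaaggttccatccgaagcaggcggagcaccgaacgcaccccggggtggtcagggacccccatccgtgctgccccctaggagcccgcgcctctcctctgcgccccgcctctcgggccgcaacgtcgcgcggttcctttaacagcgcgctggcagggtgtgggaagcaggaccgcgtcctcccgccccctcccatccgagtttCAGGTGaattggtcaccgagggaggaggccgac
TJP1, chr15:29969050-29969299, minus strand: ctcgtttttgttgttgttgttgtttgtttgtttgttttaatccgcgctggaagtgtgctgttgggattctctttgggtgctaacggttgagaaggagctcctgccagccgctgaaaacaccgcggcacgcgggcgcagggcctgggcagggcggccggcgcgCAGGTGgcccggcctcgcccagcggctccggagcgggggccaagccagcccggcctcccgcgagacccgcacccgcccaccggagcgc
CLDN1, chr3:190322447-190322696, minus strand: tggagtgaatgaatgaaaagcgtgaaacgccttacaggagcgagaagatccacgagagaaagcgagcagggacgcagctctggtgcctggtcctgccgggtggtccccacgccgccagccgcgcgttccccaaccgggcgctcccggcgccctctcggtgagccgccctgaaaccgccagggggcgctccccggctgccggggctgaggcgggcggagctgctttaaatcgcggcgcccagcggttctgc
KRT8, chr12:52926470-52926719, minus strand: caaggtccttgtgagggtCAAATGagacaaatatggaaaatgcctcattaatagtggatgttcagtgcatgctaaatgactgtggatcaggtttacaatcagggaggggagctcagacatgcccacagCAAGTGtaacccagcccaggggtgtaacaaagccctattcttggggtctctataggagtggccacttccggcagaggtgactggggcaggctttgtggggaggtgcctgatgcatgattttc
On both strands of the whole 300-base window, CAGGTG occurred 2 times for DSP, 1 time for OCLN in the window shown, 2 times in its other window, 1 time for TJP1 in the window shown and 0 times in its other 3 windows. It occurred 0 times for CLDN1 and for KRT8, and the KRT8 window held 3 other E-boxes, of which 2 lie in the stretch shown. The KRT8 window lies within the annotated span of the gene, 52897187 to 52949954, and at neither end of it. Its counts hold for that window only, and other starts of KRT8 were not examined. Of 35116 promoter windows of this length, 20.6% held CAGGTG and 68.7% held any E-box. A match describes letters in a window and is no evidence of binding. The GC box GGGCGG, found in 45.0% of windows, occurred 8 times for DSP, 2 times for CLDN1 and 0 times for KRT8, and the TATA box TATAAA, found in 11.5% of windows, occurred in none of the 5 genes' windows.

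The levels of the 9 genes spanned most of the range of the data and kept the same order in every library for the 5 highest. CLDN1 was highest at a mean of 82.1 FPKM, above 97.8% of listed genes. KRT18 followed at 36.2, TJP1 at 3.13, OCLN at 1.56 and KRT8 at 0.580 FPKM. The ranges of these 5 genes over the libraries did not overlap. KRT19 was at a mean of 0.0408 FPKM and CDH1 at 0.00413, and the ranges of these overlapped with each other and with the 0 of EPCAM and DSP.

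**Figure D1:**
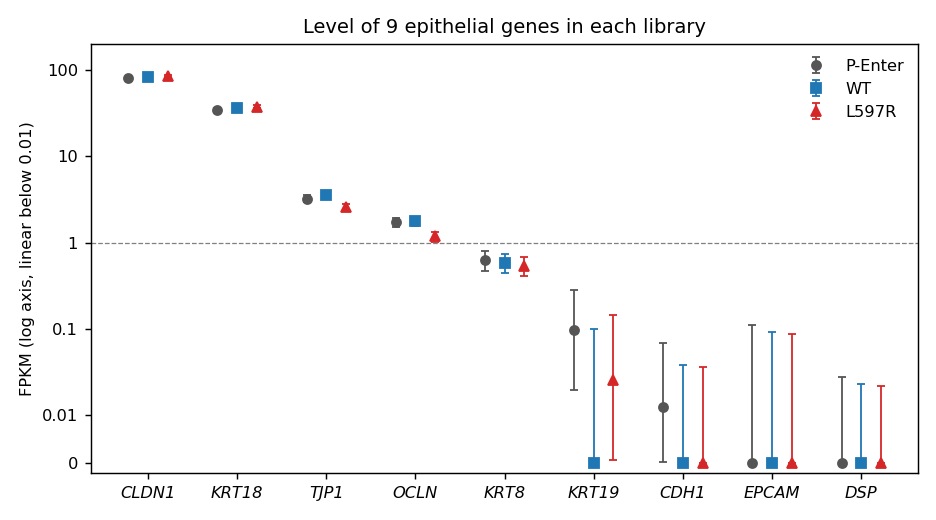
FPKM of each of the 9 genes (horizontal axis) in the libraries P-Enter, WT and L597R; the vertical axis is logarithmic above 0.01 FPKM, and bars are exact 95% counting intervals. CLDN1 lies at 79.8 to 84.4 FPKM and KRT18 at 34.3 to 37.6, while CDH1, EPCAM and DSP lie at or near 0 and the dashed line marks 1 FPKM.

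Among the adherens junction genes the cadherin itself was near 0 while the catenins CTNNA1 and CTNNB1 were high. The catenin CTNND1 had a low counted value, for which a low level and uncounted reads cannot be told apart. CDH1 (ENSG00000039068, chromosome 16, 68737225 to 68835548, plus strand, GRCh38) was at 0.0124, 0 and 0 FPKM. These values came from 1, 0 and 0 reads, and 3 reads, used here as a floor, would be 0.0371, 0.0315 and 0.0297 FPKM. The upper ends of the counting intervals were higher, at 0.069, 0.0388 and 0.0366 FPKM. All 3 libraries were below that floor and no fold is given. Its neighbour CDH3, the placental cadherin of basal cells, was at 0.0235, 0.0699 and 0.0188 FPKM, from 2, 7 and 2 reads. CDH2, the neural cadherin, was at 8.94, 8.22 and 8.56 FPKM, and was the cadherin with the highest level in the adherens junction list. The catenins CTNNA1 and CTNNB1, which link cadherins to actin, were at means of 78.4 and 33.0 FPKM, and the actin linker VCL and the cell adhesion protein NECTIN2 at 39.3 and 23.0.

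EPCAM (ENSG00000119888, chromosome 2, 47345158 to 47387601, plus strand) had no entry, and 3 reads over its 2519 exon bases would be 0.0896, 0.076 and 0.0717 FPKM. For a count of 0 the intervals would reach up to 0.11, 0.0935 and 0.0882 FPKM. Its neighbour CALM2, which encodes calmodulin, was counted at 56.2, 58.6 and 71.6 FPKM. Of the 12 epithelial surface proteins and proteases listed, 5 had no entry and 1 reached 1 FPKM: LSR, a receptor of tricellular junctions, at a mean of 6.18. The next highest were CDS1 at 0.426, CD24 at 0.277 and MUC1 at 0.252 FPKM.

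The 3 tight junction genes differed in level and in direction: CLDN1 was the highest of the 9 genes and slightly higher in L597R, and OCLN and TJP1 were low and lower in L597R. CLDN1 (ENSG00000163347, chromosome 3, 190305701 to 190322475, minus strand) was at 79.8, 82.2 and 84.4 FPKM, from 3847, 4673 and 5085 reads. The libraries lay within a narrow band, with a read ratio of 1.03 (0.988 to 1.08) for WT and 1.06 (1.01 to 1.10) for L597R against P-Enter. CLDN1 stood 13.1, 13.1 and 11.2 times above CLDN12 per length in the order P-Enter, WT and L597R; CLDN12, at a mean of 6.62 FPKM, was the next highest claudin of the list. CLDN4, a claudin of many simple epithelia, was at 0.288, 0.245 and 0.115 FPKM, and CLDN3 had no entry.

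OCLN (ENSG00000197822, chromosome 5, 69492292 to 69558104, plus strand) was at 1.73, 1.77 and 1.18 FPKM, from 259, 313 and 220 reads. L597R was the low library, and P-Enter and WT were alike within counting error, with a read ratio of 1.03 (0.867 to 1.21). The read ratio of L597R was 0.680 (0.566 to 0.817) against P-Enter and 0.663 (0.556 to 0.790) against WT. The length worked out from the deposited values was 11259 bases, and with the 6761 exon bases of the annotation used here the levels would be 2.88, 2.96 and 1.96 FPKM. MARVELD2 (tricellulin), a relative of OCLN and its neighbour on chromosome 5, was at 0.799, 0.726 and 0.561 FPKM. Its read ratio for L597R against P-Enter was 0.702 (0.471 to 1.05), an interval that holds 1.

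TJP1 (ENSG00000104067, chromosome 15, 29699367 to 29968865, minus strand) was at 3.23, 3.55 and 2.60 FPKM, from 486, 630 and 488 reads. L597R was again the low library and WT the high one. Relative to P-Enter the read ratio was 1.10 (0.976 to 1.24) in WT and 0.804 (0.708 to 0.913) in L597R, and L597R relative to WT gave 0.731 (0.648 to 0.824). CGN (cingulin), which binds ZO proteins, was at 3.13, 3.45 and 2.66 FPKM. The polarity proteins PARD3 and PALS1, at means of 8.99 and 5.88 FPKM, did not share that order: the read ratio of PALS1 for L597R against P-Enter was 1.25 (1.16 to 1.36).

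Differences between these libraries varied with the base composition of genes, and in L597R OCLN and TJP1 lay below genes of like composition. Across 9358 protein-coding genes, Spearman's rho between GC content and the log2 difference was -0.46 between WT and P-Enter, -0.70 between L597R and P-Enter and -0.60 between L597R and WT; genes are not independent replicates. The log2 differences are of log2(FPKM + 1), a scale that understates changes of low genes. OCLN, at 39.9% GC, differed by -0.33 between L597R and P-Enter, where the 1689 genes within 2 percentage points of its GC content had a median of 0.23. TJP1, at 44.8% GC, differed by -0.23 beside a median of 0.05 for 1530 such genes. CLDN1, at 41.5%, differed by 0.08 beside 0.18, and KRT18, at 57.0%, by 0.13 beside -0.13. Outside the 9, PALS1, at 40.1%, differed by 0.28 beside 0.22.

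**Figure D2:**
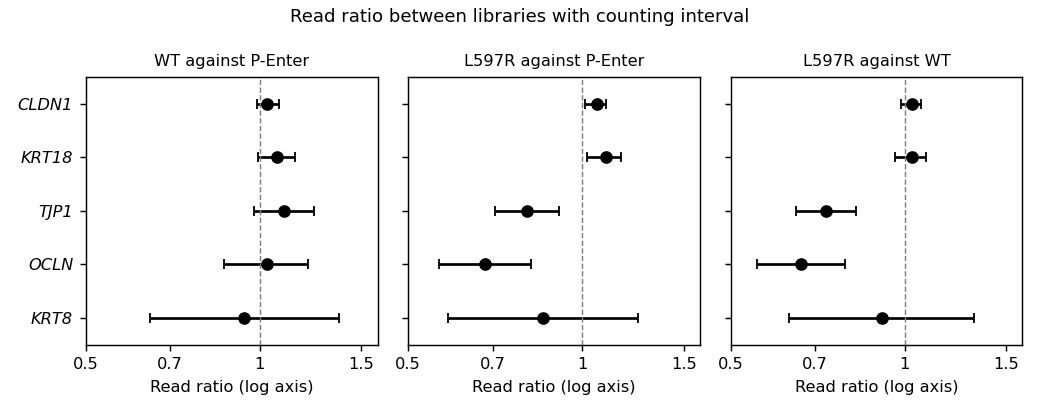
Read ratio between libraries (horizontal axis, logarithmic) for CLDN1, KRT18, TJP1, OCLN and KRT8, in 3 comparisons; points are ratios of reads scaled to the library totals and bars exact 95% counting intervals. The intervals of OCLN and TJP1 lie below 1 in the comparisons of L597R with P-Enter and with WT, and all 5 intervals hold 1 for WT against P-Enter.

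No gene of the 9 passed the size rule in any comparison. The rule asks that log2(FPKM + 1) differ by 1 or more in a gene averaging 1 FPKM or more. The 5 genes below that average could not pass, so the outcome was open for 4 genes only. By that rule 0.978% of 10639 genes were called between WT and P-Enter, 0.808% between L597R and P-Enter and 0.724% between L597R and WT. Among the 4 genes at or above 1 FPKM, intervals of read ratios between WT and P-Enter all held 1, whereas the interval lay above 1 for 14.0% and below 1 for 12.1% of all genes tested. Between L597R and P-Enter the interval lay above 1 for CLDN1 and KRT18 and below 1 for OCLN and TJP1, beside 25.5% and 23.9% of all genes. Between L597R and WT it lay below 1 for OCLN and TJP1 and above 1 for none, beside 16.3% and 22.1%. The comparisons share libraries, L597R in the last 2 and P-Enter in the first 2, and are not independent. The 4 genes had a median log2 difference of 0.07, -0.08 and -0.15 in that order, and all genes tested 0.00, -0.01 and 0.01.

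DSP (ENSG00000096696, chromosome 6, 7541575 to 7586717, plus strand) had no entry, so the plakin that anchors keratin at desmosomes was counted as 0. Over its 10093 exon bases, 3 reads would be 0.0224, 0.019 and 0.0179 FPKM, and the intervals of a count of 0 would reach up to 0.0275, 0.0233 and 0.022. Its neighbours RIOK1 and SNRNP48 were counted, at 16.4, 17.0 and 17.5 and at 3.47, 3.40 and 4.09 FPKM. Other desmosomal parts were present. The desmosomal cadherin DSG2 was at 4.60, 5.10 and 6.63 FPKM, the plakophilin PKP2 at 7.09, 7.13 and 8.48 and the plakoglobin JUP at 4.64, 4.35 and 3.63. The plakin PPL (periplakin) was at 6.27, 5.50 and 3.87 FPKM, with a read ratio of 0.617 (0.548 to 0.695) for L597R against P-Enter. The highest genes of the desmosome and hemidesmosome list were the cytolinker PLEC at a mean of 72.7 FPKM, PERP at 26.1, PKP4 at 19.8 and DST at 10.3, of which PLEC and DST also serve hemidesmosomes.

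The keratins were uneven, with the type I chain KRT18 far above its type II partner KRT8. KRT18 (ENSG00000111057, chromosome 12, 52948871 to 52952901, plus strand) was at 34.3, 36.6 and 37.6 FPKM, from 1399, 1761 and 1914 reads. P-Enter was the lowest library, with a read ratio of 1.10 (1.02 to 1.17) for L597R and 1.07 (0.995 to 1.15) for WT against it. KRT8 (ENSG00000170421, chromosome 12, 52897187 to 52949954, minus strand) was at 0.623, 0.584 and 0.534 FPKM, from 57, 63 and 61 reads. Its 3 libraries did not differ beyond counting error, with a ratio of 0.857 (0.587 to 1.25) for L597R against P-Enter. Per length, KRT18 stood 55.0, 62.7 and 70.4 times above KRT8 in P-Enter, WT and L597R. KRT19 (ENSG00000171345, chromosome 17, 41523617 to 41528308, minus strand), a type I keratin, had 3, 0 and 1 reads, or 0.0966, 0 and 0.0258 FPKM. The ratio of 1 to 3 reads, 0.267 for L597R against P-Enter, had an interval from 0.00508 to 3.32.

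Among the other type II keratins KRT7 came near the level of KRT18, and KRT80 stood below it. KRT7, a type II keratin of glandular and duct epithelia, was at 28.9, 27.2 and 26.9 FPKM, and KRT80 at 18.8, 17.6 and 14.8, with a read ratio of 0.789 (0.724 to 0.859) for L597R against P-Enter. KRT18 was thus 1.18, 1.35 and 1.40 times KRT7 per length. The log2 difference of KRT80, at 56.8% GC, was -0.32 between L597R and P-Enter. Genes of like GC content had a median of -0.13. Summed over the 12 type I genes of the lists, of which 7 had an entry, the level was 41.9, 42.6 and 44.0 FPKM, and over the 14 type II genes 48.8, 45.5 and 42.6. Of the 19 keratins of basal and stratified epithelia, 12 had no entry, among them KRT5, and 2 reached 1 FPKM: KRT10 at a mean of 3.97 and KRT15, the neighbour of KRT19, at 2.13. KRT16 and KRT86 were next at 0.403 and 0.268, and KRT14 had 2, 0 and 0 reads.

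**Figure D3:**
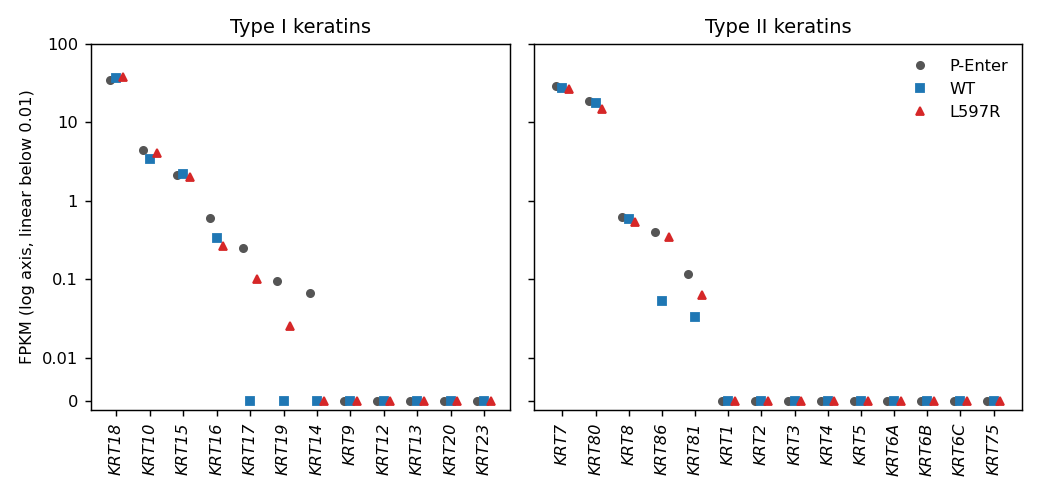
FPKM of 12 type I keratins (left) and 14 type II keratins (right) in the 3 libraries; the vertical axis is logarithmic above 0.01 FPKM, and genes with no entry are drawn at 0. KRT18 leads the type I genes at 34.3 to 37.6 FPKM, and KRT7 and KRT80 lead the type II genes with KRT8 below 1 FPKM.

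Whether a low value reflects few transcripts or a locus whose reads were not counted was examined from the gene models and transcript sequences of GENCODE 29 on GRCh38. None of the 9 genes shared an exon base with another gene on its own strand. Of the 100-base windows of their transcripts, 100% occurred in no transcript of another gene for EPCAM, DSP, KRT19, CLDN1 and TJP1, 97.6% for CDH1, 94.5% for KRT8, 93.8% for OCLN and 91.6% for KRT18. At 50 bases the lowest shares were 75.5% for KRT18 and 83.9% for KRT8. KRT18, with the lowest share of the 9, was counted at 34.3 to 37.6 FPKM. On the opposite strand, 7.63% of the KRT8 exons overlapped KRT18, which lies next to it, 16.3% of the KRT18 exons overlapped KRT8, and 5.62% of the CDH1 exons overlapped an antisense gene. The strand setting of the counting is not given in the sources used here, so reads from these stretches cannot be assigned. Differences between the authors' gene models and these, and rows missing for another reason, cannot be seen from the values.

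Across the genome, extensive overlap on the same strand went with fewer counted genes. Of 13616 protein-coding genes with no such overlap and at least 95% unique windows, 71.7% had an entry and 49.1% a mean of at least 1 FPKM. Of 908 genes with at least 50% of their exon bases overlapped, 27.8% had an entry and 3.52% reached 1 FPKM. Of 2517 genes with some overlap but under 50%, 51.3% reached 1 FPKM, close to the first group. Of 530 genes without overlap but with under 50% unique windows, 10.8% reached 1 FPKM, and of 138 genes with at least 50% overlap on the opposite strand only, 26.8% did. The groups also differ in the kinds of genes they hold, and the part of that in these shares was not tested. CDH1, EPCAM, DSP and KRT19 belong to the first group, while KRT8 falls just short of its 95% of unique windows.

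**Figure D4:**
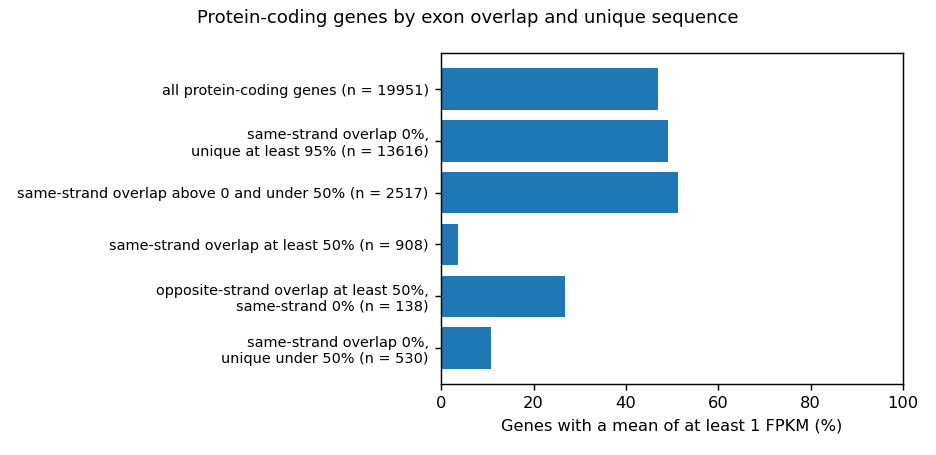
Share of protein-coding genes with a mean of at least 1 FPKM (horizontal axis, percent) in groups set by exon overlap with other genes and by the share of unique 100-base windows; n is the number of genes. The share is 49.1% for genes with no same-strand overlap and at least 95% unique windows and 3.52% for genes with at least 50% same-strand overlap.

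Exon overlap on the same strand was found for some low junction genes outside the 9. F11R, a junctional adhesion molecule, was at 0.268, 0.341 and 0.238 FPKM with 36.6% of its exon bases overlapped by AL591806.3. CTNND1 (p120 catenin), which binds the inner side of classical cadherins, was at 0.480, 0.466 and 0.487 FPKM. Its overlap with TMX2-CTNND1 was 3.65% in this annotation, but the length worked out for CTNND1 was 15212 bases against 8798 exon bases here, so the authors' gene model differed from this one. In this annotation both genes fall in the group with under 50% overlap, where the share of counted genes was not lower. That group pools small overlaps with larger ones such as that of F11R. The overlap of CTNND1 in the authors' gene model is not known. For each of them a low level and uncounted reads cannot be told apart.

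KRT8 and KRT18 have many processed copies in the genome, and reads could be counted there. Of 51 genes named as KRT8 pseudogenes, 10 were listed, with 134, 151 and 144 reads, more than the 57, 63 and 61 of KRT8 itself. Most of these were at KRT8P12 (chromosome 3, 160565447 to 160569248), with 113, 120 and 117 reads. That copy lies inside KPNA4 on the opposite strand, shares 6.94% of its exon bases with it, and 97.8% of its windows were its own, so its reads cannot be tied to KRT8 transcripts. With all of them added, the reads at KRT8 and its copies came to 191, 214 and 205, beside 1399, 1761 and 1914 for KRT18. That sum holds counted reads only. Reads that match both KRT8 and a copy may have been counted at neither, and their number was not tested. The sum therefore sets no upper limit on the reads that came from KRT8 transcripts. Of 67 KRT18 pseudogenes, 14 were listed, with 19, 23 and 15 reads in sum. OCLNP1, the copy of OCLN, had 2, 5 and 8 reads, and 27.2% of its windows were its own.

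The wider epithelial lists showed the same mixture of present and missing genes. Besides the 9, the 7 lists of adherens junction, tight junction, desmosome, keratin, surface and regulatory genes held 108 genes, of which 38 had no entry and 31 reached 1 FPKM. None of the 31 passed the size rule in any comparison. For L597R against P-Enter the interval lay above 1 for 11 and below 1 for 6 of them, with a median log2 difference of -0.02, where 25.5% and 23.9% of all genes tested lay above and below. Between WT and P-Enter it lay above 1 for 3 and below for 2, beside 14.0% and 12.1%, and between L597R and WT for 10 and 7, beside 22.1% and 16.3%. Of 16 epithelial transcription factors and splicing regulators, 9 had no entry, among them GRHL2, OVOL1, ESRP1 and ELF3. KLF4 and KLF5, factors of barrier and gut epithelia, reached means of 15.3 and 4.41 FPKM, and FOXA1 and GRHL1 0.719 and 0.376. ESRP2, a splicing regulator of epithelial isoforms, had 9, 2 and 4 reads.

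**Figure D5:**
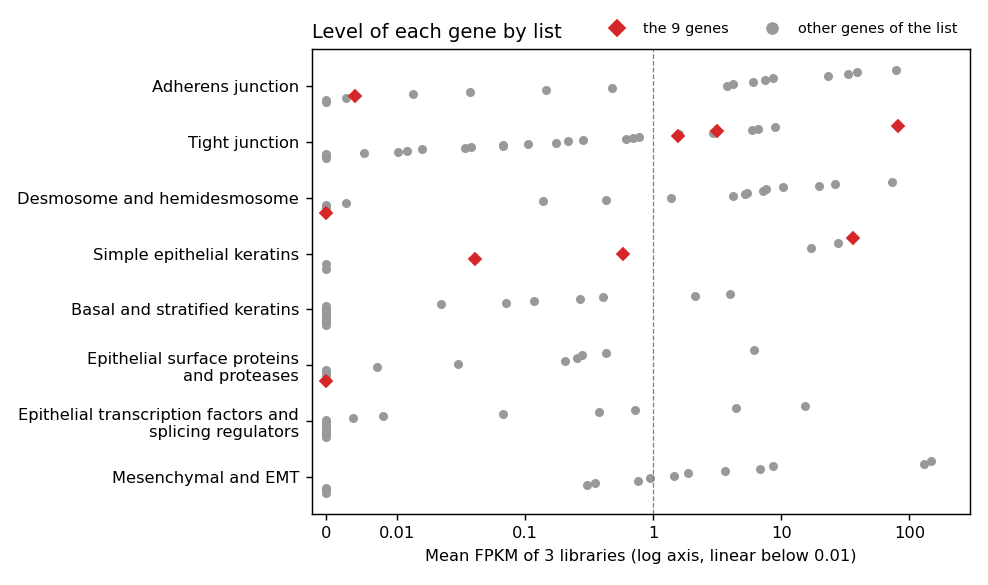
Mean FPKM over the 3 libraries (horizontal axis, logarithmic above 0.01) of every gene in 7 epithelial lists and in the mesenchymal list; diamonds are the 9 genes and circles the others, with genes without an entry at 0. Adherens junction, tight junction and desmosome lists hold genes on both sides of the dashed line at 1 FPKM, while 2 of 16 epithelial transcription factors and splicing regulators lie above it.

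Over these 3 libraries the genes of the lists with the pattern nearest to a member, by distance in the plane of the 2 log2 differences from P-Enter, were PKP3 and JUP for OCLN (distances 0.051 and 0.108) and CGN and PKP3 for TJP1 (0.060 and 0.077). PKP3, a plakophilin, differed by 0.04 in WT and -0.28 in L597R. For CLDN1 they were AFDN and KRT18 (0.062 and 0.068), and for KRT18 they were KLF4 and LSR (0.053 and 0.068). The distances rest on 3 libraries and 35 genes, take no account of GC content and are a description. PKP3, JUP and CGN were at 66.7%, 61.5% and 56.1% GC. Genes of like GC content had median log2 differences of -0.12, -0.14 and -0.13 between L597R and P-Enter. For OCLN and TJP1 these medians were 0.23 and 0.05, so a near distance need not mean a like departure from such genes.

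Markers of other cell types were checked against the label of prostate cancer cells. Of 14 mesenchymal genes 7 reached 1 FPKM, with a summed level of 310, 302 and 294 FPKM. VIM, the intermediate filament of mesenchymal cells, was at 130, 127 and 132 FPKM and the receptor kinase AXL at 155, 151 and 136. Between L597R and P-Enter the interval lay above 1 for 2 of these 7 genes, ZEB1 and ZEB2, and below 1 for AXL, beside 25.5% and 23.9% of all genes. ZEB2, at 39.1% GC, was at 1.12, 1.55 and 1.68 FPKM. Its log2 difference of 0.34 between L597R and P-Enter lay beside a median of 0.26 for genes of like GC content. The ratio of AXL was 0.876 (0.853 to 0.900). Below a mean of 1 FPKM, SPARC had a read ratio of 0.588 (0.395 to 0.87) for L597R against P-Enter. TWIST1, TWIST2 and CDH11 had no entry. ZEB1, a repressor of CDH1, was at 2.72, 3.33 and 4.79 FPKM, with a read ratio of 1.76 (1.54 to 2.02) for L597R against P-Enter. Its GC content was 38.5%, and the genes of like GC content had a median log2 difference of 0.27 beside its 0.64; the part of either in the levels of OCLN and TJP1 was not tested. Of 10 prostate luminal genes, 1 of which had no identifier match, 3 reached 1 FPKM, among them SLC45A3 and STEAP2, while KLK3 and HOXB13 had no entry. None of 10 fibroblast, 6 neuroendocrine, 7 melanocyte, 9 blood cell, 7 endothelial and 6 neural genes had a mean over the libraries of 1 FPKM; the highest was MITF, a melanocyte factor, at 0.705, 0.830 and 1.03 FPKM. Their sums stayed between 0.00696 and 1.20 FPKM a list in every library. COL1A1 had 2, 1 and 1 reads and PTPRC 3, 1 and 0. The epithelial markers were the 9 genes, of which CLDN1 and KRT18 were high. TJP1 and OCLN were low, at means of 3.13 and 1.56 FPKM, and KRT8 lay below 1 FPKM in all 3 libraries. CDH1, EPCAM, DSP and KRT19 were at or near 0 in all 3 libraries. How these levels compare with those of other DU145 cultures was not tested.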

How the data were processed

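Total RNA of DU145 cells (Trizol) went into TruSeq stranded mRNA libraries, per the labels' protocols, 1 for each of 3 groups. The deposited values are FPKM per Ensembl gene, 1 table a library, per the file headers. The submitters' processing notes name Trimmomatic, HISAT2, Cufflinks and HTSeq and the builds hg38 and GRCh38. Versions, the strand setting and the annotation release are not given in the sources used here.

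For each of the 23379 genes a length was sought at which the FPKM values give whole reads in every library, within the rounding of the files and at most 0.02 reads, taking the length nearest to GENCODE 29 where several served; 47.5% equalled its exon length. The length is less certain for the 4091 genes above 0 in 1 library only. The reads so found sum to 100.79 to 100.80% of the library totals, so not every recovered read count can be exact as a share of these totals; the cause was not tested. Library totals were 13294004, 15665132 and 16603676 reads. Of the identifiers, 23330 had a symbol and 22807 were in GENCODE 29. Differences are of log2(FPKM + 1), over 10639 genes with a mean of at least 1 FPKM. Read ratios have exact Clopper-Pearson 95% intervals conditional on the sum of reads; reads that are PCR copies are not independent molecules. With 1 library a group no test was made. Exon overlap and the share of 100-base windows found in no other gene's transcripts were computed from GENCODE 29. Calculations were tested on simulated data and ran in Python 3.11.15 with scipy 1.17.1, pandas 2.3.3 and numpy 2.4.6, and plots with matplotlib 3.10.9.

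The 9 genes and the 15 lists were chosen with earlier results of these data known. Named from each epithelial list are genes past the size rule and the 4 with the highest mean. CDH2, CDH3, DSG2, PKP2, JUP, PPL, CGN, MARVELD2, CLDN4, ESRP2, KRT14, F11R, CTNND1 and ZEB1 were chosen after their values were seen. SPARC and the genes named for having no entry were also chosen in that way. Other pseudocounts, filters, thresholds, scalings, lengths and window sizes were tried. Some genes of the lists are not reported here.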

Additional observations from a re-analysis of the deposited data

How the results depend on the processing

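None of the 9 genes passed the size rule under any alternative tried, but for 5 of them this says little. They average under 1 FPKM and fall to the filter on low values. Without that filter, a gene below 1 FPKM in every library cannot differ by 1 in log2(FPKM + 1). With a mean of at least 5 FPKM, OCLN and TJP1, at means of 1.56 and 3.13 FPKM, were left out as well. The 12 log2 differences of OCLN, TJP1, CLDN1 and KRT18 kept their direction and stayed under the threshold with a pseudocount of 0.1 or 5, after rescaling by the median ratio, and as ratios of reads. The count over all genes depended on the settings. It was 104 between WT and P-Enter, 86 between L597R and P-Enter and 77 between L597R and WT. In that order it was 191, 203 and 189 with a pseudocount of 0.1, and 2, 7 and 3 with a pseudocount of 5. It was 267, 246 and 214 with no filter on low values, and 9, 13 and 8 with a mean of at least 5 FPKM. A threshold of 1.5-fold gave 233, 322 and 237, protein-coding genes alone gave 11, 11 and 7, and read ratios with an interval beyond 1.5-fold gave 32, 49 and 35. The lowest share of unique windows among the 9 genes, 91.6% at 100 bases, was 75.5% at 50 bases, 95.2% at 150 bases and 87.9% over protein-coding transcripts. With the exon length of the annotation 17 of 21 levels stayed within their counting intervals; those of OCLN and that of KRT18 in L597R, at 35.8 FPKM, did not. No paired analysis was possible because each group is 1 library with no replicate number. For CDH1, EPCAM, DSP and KRT19 the depth sets the limit, since 3 reads or fewer cannot show a difference between libraries.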
